A study of Mus musculus with 101 samples.

Results

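The RNA of astrocyte ribosomes was compared between the cortical areas labelled PFC and VCX, the usual abbreviations for prefrontal and visual cortex, in mice injected with phosphate-buffered saline (PBS). The libraries were chosen by their labels as the PBS immunoprecipitates of days 1, 2 and 14, which gave 12 PFC and 12 VCX libraries, 24 of the 101 in the series. All came from mice of the strain labelled C57 that received PBS into the peritoneum and were taken 1, 2 or 14 days later, with 4 libraries per area and day, 2 from females and 2 from males. In each sample ribosomes were pulled down through a hemagglutinin (HA) tag carried by astrocytes (the IP), and polyA RNA was sequenced. The promoter that drives the tag and the age of the mice are not given in the sources used here. Neither do the labels say whether each library is a separate animal or whether PFC and VCX libraries share animals, so the p-values measure the spread between libraries. Each day was also a sequencing project of its own, and day and project cannot be told apart. Libraries set beside these were the 24 cleared lysates (input) of PBS mice, and 23 IP libraries of mice given lipopolysaccharide (LPS), a bacterial cell wall component, at 5 mg per kg.

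Astrocytes are the glial cells that clear glutamate and potassium from around synapses, supply neurons with lactate and lipids and cover blood vessels with their endfeet. In the developing cortex, gradients of transcription factors such as the nuclear receptor Nr2f1 set area identity along the front to back axis. Astrocytes arise from the same radial progenitors as the neurons of their area, and differ between brain regions and cortical layers in the genes they use.

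The 24 libraries held 20.67 to 63.71 M reads, as worked back from the deposited values, and a library detected 15939 to 17338 genes. Levels are given as FPKM (reads scaled to gene length and library size) after a further scaling between libraries, and can be compared between genes. All 20 astrocyte markers were IP-enriched, meaning a level at least 2-fold higher in IP than in input in both areas with an adjusted p under 0.05 by limma, the linear model fitted across all genes. Aldh1l1, a folate enzyme used as an astrocyte marker, had a lowest, median and highest level of 273, 294 and 399 FPKM in PFC libraries and 269, 308 and 427 FPKM in VCX libraries. Of the other cell type lists, the 12 pan-neuronal markers were all input-enriched but still summed to 163 to 379 FPKM in PFC and 172 to 419 FPKM in VCX libraries, against 24769 to 30390 FPKM in PFC and 24412 to 30179 FPKM in VCX libraries for the astrocyte markers. PFC replicates 1 and 3 and VCX replicates 1 and 2 of day 14 had mean pan-neuronal levels of 3.99 to 4.45 on the log2 scale, against 3.17 to 3.40 in the other 4 of that day. VCX replicate 4 of day 1 stood apart in the fit by day, as described there. The 10 meningeal fibroblast markers summed to 36.7 to 114 FPKM in PFC and 30.9 to 138 FPKM in VCX libraries, with medians of 68.6 FPKM in PFC and 96 FPKM in VCX. Day and sex were terms of the model in the comparison of areas.

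**Figure D1:**
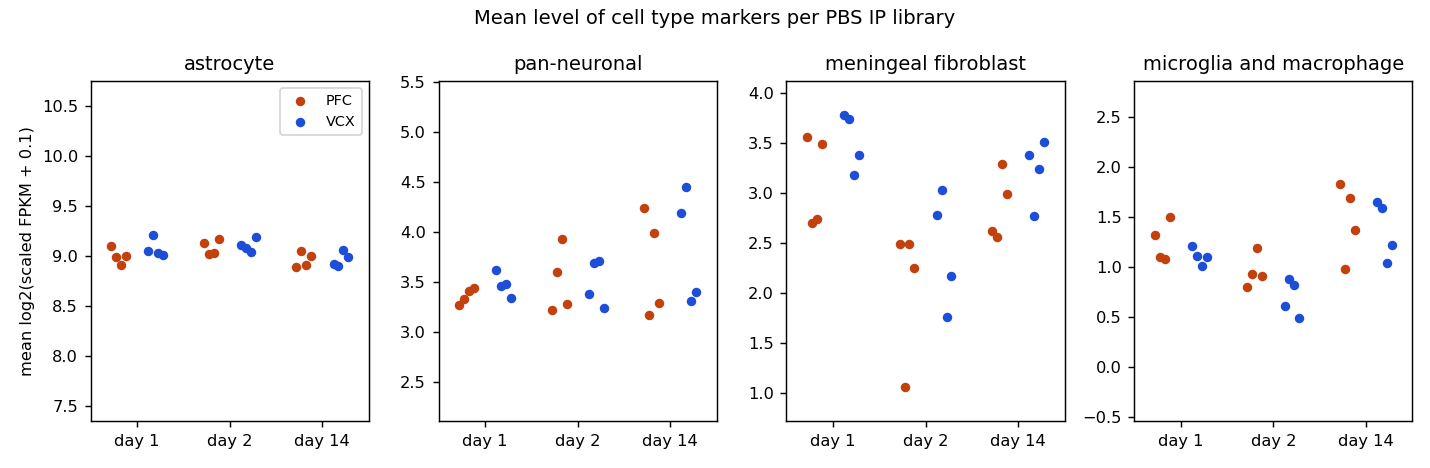
Mean log2 level of the markers of 4 cell types in each PBS IP library (y axis, log2 of scaled FPKM plus 0.1; one point per library) by day, PFC left of VCX; the 4 panels have y axes of equal length in log2 units. Astrocyte markers lie between 8.89 and 9.21 in all libraries, while 4 libraries of day 14 are higher than the rest of that day for pan-neuronal markers and meningeal markers range from 1.06 to 3.78.

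Astrocyte ribosomes of PFC and VCX differed in many genes, most of them by a small amount. Limma called 2304 of 12588 tested genes (18.3%) at an adjusted p under 0.05, 1180 higher in PFC (9.37%) and 1124 lower (8.93%). Of these, 116 (0.922% of tested genes) differed at least 2-fold, 55 higher (0.437%) and 61 lower in PFC (0.485%), and the median size of a called difference was 0.29 on the log2 scale. Among 3175 IP-enriched genes 547 were higher and 411 lower in PFC, which is 30.2% called. Among 2277 input-enriched genes 181 were higher and 207 lower (17%), and among the other 7136 genes 452 were higher and 506 lower (13.4%). PFC and VCX libraries of the same day did not overlap on any of the 3 days for 235 genes called higher in PFC (1.87%) and 199 called lower (1.58%). In bulk RNA of this kind, more astrocytes or carried-over cells with a transcript cannot be told apart from more of it per cell. The count of 2304 was 1368 without day 2 and 1315 without the day term.

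The genes with a large PFC excess included a zinc finger transcription factor and enzymes of lipid handling. Zic1, a transcription factor of the Zic family (mm10, chr9:91358058-91365810), had a lowest, median and highest level of 11.8, 17.3 and 21.1 FPKM in PFC and 1.41, 3.85 and 7.35 FPKM in VCX libraries. All PFC libraries lay above all VCX libraries, and the log2 difference was 2.10 ± 0.17 (adjusted p = 3.9e-09). Zic1 overlaps Zic4, so reads of the overlap cannot be assigned with certainty.

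Acsm5, of the mitochondrial family that activates medium-chain fatty acids (chr7:119519463-119545551), measured 3, 3.89 and 4.76 FPKM in PFC and 0.129, 0.273 and 0.359 FPKM in VCX libraries. It was present in all VCX libraries at 15 to 41 reads and differed by 3.47 ± 0.09 (log2, adjusted p = 3.9e-19), a size that depends on the 0.1 FPKM added before the logarithm, being 1.95 with 1 FPKM added. Cyp27a1, the sterol 27-hydroxylase that starts side-chain oxidation of cholesterol (chr1:74713574-74737892), had 3.78, 4.83 and 5.61 FPKM in PFC and 0.557, 0.894 and 1.59 FPKM in VCX libraries. The ranges did not overlap, with a log2 difference of 2.31 ± 0.11 (adjusted p = 2.5e-14). Cacng5, an auxiliary subunit of AMPA-type glutamate receptors (chr11:107874605-107915055), was at 1.72, 1.96 and 2.58 FPKM in PFC and 0.0614, 0.211 and 0.321 FPKM in VCX libraries, a log2 difference of 2.80 ± 0.10 (adjusted p = 2.1e-16), or 1.33 with 1 FPKM added. Its VCX values rest on 5 to 61 reads per library.

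Another 7 genes with a large PFC excess that separated the areas on each day began with the secreted phospholipase Pla2g5 (log2 1.73 ± 0.12), the carbohydrate sulfotransferase Chst7 (1.55 ± 0.10), the ER-phagy receptor Fam134b (1.47 ± 0.10) and the crystallin Crybb1 (1.46 ± 0.11). They also included the GPI-anchored neuritin Nrn1 (1.44 ± 0.07), the lysosomal protease cathepsin C, Ctsc (1.40 ± 0.05), and the heparan sulfate 3-O-sulfotransferase Hs3st3a1 (1.36 ± 0.08). The highest adjusted p among these was 4.3e-10, for Crybb1. Nrn1 was the most abundant, at 27.8 ± 3.48 FPKM in PFC and 10.2 ± 1.85 FPKM in VCX libraries (mean ± SD, n = 12 each). Fam134b and Nrn1 were input-enriched genes, with IP over input ratios in PFC of -1.55 and -1.53 on the log2 scale. Their RNA was thus more abundant in the lysate than in the IP. Cyp27a1, Cacng5, Pla2g5 and Crybb1 were also outside the IP-enriched class.

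**Figure D2:**
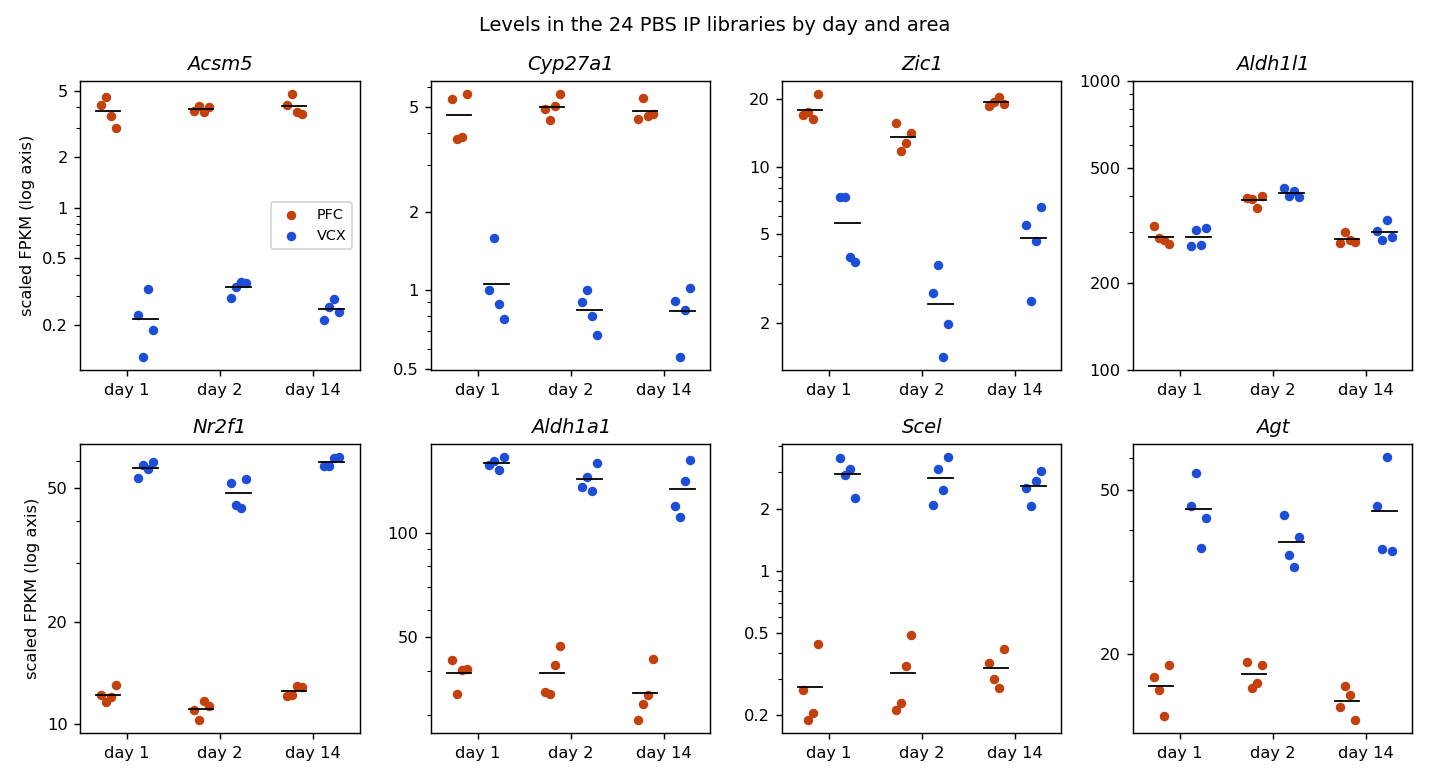
Level of 8 genes in each PBS IP library (y axis, scaled FPKM, log axis; one point per library, bar at the mean of 4) by day, PFC left of VCX. Acsm5, Cyp27a1 and Zic1 are higher in PFC and Nr2f1, Aldh1a1, Scel and Agt lower, with no overlap on any day, whereas the Aldh1l1 ranges of 273 to 399 FPKM in PFC and 269 to 427 FPKM in VCX overlap.

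Among genes lower in PFC, the area patterning factor Nr2f1 and the retinoic acid enzyme Aldh1a1 had levels above 10 FPKM in every library and narrow ranges. Nr2f1 (COUP-TFI, chr13:78188973-78199757) had a lowest, median and highest level of 10.3, 12 and 13.1 FPKM in PFC libraries, against 43.8, 57.5 and 61.9 FPKM in VCX libraries. The log2 difference of -2.19 ± 0.04 (adjusted p = 1.8e-23) had the lowest p of all tested genes, and its span overlaps the noncoding gene A830082K12Rik. Aldh1a1, which oxidises retinaldehyde to retinoic acid (chr19:20492715-20643465), had 29, 37.5 and 47.3 FPKM in PFC and 111, 147 and 165 FPKM in VCX libraries, a log2 difference of -1.93 ± 0.07 (adjusted p = 1.6e-16). For both genes every PFC library was below every VCX library. Scel, which encodes the epidermal envelope protein sciellin (chr14:103513342-103612797), had the greatest difference in this direction. It reached 0.19, 0.285 and 0.49 FPKM in PFC and 2.05, 2.82 and 3.56 FPKM in VCX libraries, a log2 difference of -2.83 ± 0.12 (adjusted p = 7.1e-15), or -1.52 with 1 FPKM added.

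The secreted phosphoprotein Spp1 (osteopontin, chr5:104435118-104441050) had 1.73, 8.83 and 19.5 FPKM in PFC and 10.7, 39.7 and 50.8 FPKM in VCX libraries. Its ranges overlapped over all days but not within a day, and the log2 difference was -1.91 ± 0.20 (adjusted p = 3.2e-07). With the meningeal marker level of each library as a covariate it was -1.49. Hdc, the histidine decarboxylase that makes histamine (chr2:126593667-126619299), was at 0.453, 0.903 and 1.48 FPKM in PFC and 2.67, 3.37 and 5.02 FPKM in VCX libraries, without overlap, a log2 difference of -1.82 ± 0.12 (adjusted p = 2.8e-11).

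The remaining 7 of the 12 with the largest VCX excess were of mixed function. None of them was in the IP-enriched class, and neither were Nr2f1 and Scel. Hmgcll1, an HMG-CoA lyase relative, differed by -1.61 ± 0.06, the immediate early nuclear receptor Nr4a1 by -1.60 ± 0.16 and the P-type ATPase Atp13a5 by -1.59 ± 0.11 (log2). Slow troponin T, Tnnt1, differed by -1.39 ± 0.10, tissue plasminogen activator, Plat, by -1.37 ± 0.11, the lysophosphatidic acid receptor Lpar1 by -1.35 ± 0.11 and the adhesion receptor Lphn2 by -1.34 ± 0.05. All 7 were called, with adjusted p of at most 8.8e-08. Plat had 6.13 ± 1.69 FPKM in PFC and 15.6 ± 1.96 FPKM in VCX libraries, and Lphn2 4.42 ± 0.523 FPKM in PFC and 11.3 ± 1.01 FPKM in VCX libraries (mean ± SD, n = 12 each).

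Nr2f1 binds DNA sites built on the letters AGGTCA, the half-site of many nuclear receptors, so promoter windows were searched for them. The windows are RefSeq's, build GRCm38.p6, from 250 bases before to 50 after each start, and AGGTCA was searched on both strands. Of tested genes with a window, 14.2% (1402 of 9898) held the letters in at least 1 window. The shares were 14.4% (130 of 905) for genes higher in PFC and 12.4% (106 of 855) for genes lower in PFC. Of the 36 genes chosen by size here and below, 32 had a window and 2 held the letters, Pla2g5 and Afap1l2. Their windows are shown with those of Acsm5, Aldh1a1 and Nr2f1, which lead the gene sets and hold none. Capitals mark AGGTCA or its reverse complement, and each window runs along the gene's strand.
Pla2g5, chr4:138819208-138819507, minus strand: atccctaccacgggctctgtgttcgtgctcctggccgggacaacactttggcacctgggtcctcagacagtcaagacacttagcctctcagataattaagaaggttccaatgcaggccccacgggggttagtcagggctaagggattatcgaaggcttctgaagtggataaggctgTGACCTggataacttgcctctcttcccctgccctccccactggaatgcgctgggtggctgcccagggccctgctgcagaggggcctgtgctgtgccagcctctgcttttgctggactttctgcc
Afap1l2, chr19:57008526-57008825, minus strand: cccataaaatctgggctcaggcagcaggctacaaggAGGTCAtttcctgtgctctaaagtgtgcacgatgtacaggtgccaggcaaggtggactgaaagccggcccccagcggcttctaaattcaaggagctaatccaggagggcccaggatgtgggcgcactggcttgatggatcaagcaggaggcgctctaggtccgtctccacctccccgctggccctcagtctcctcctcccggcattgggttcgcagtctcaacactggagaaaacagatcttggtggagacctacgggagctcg
Acsm5, chr7:119526015-119526314, plus strand: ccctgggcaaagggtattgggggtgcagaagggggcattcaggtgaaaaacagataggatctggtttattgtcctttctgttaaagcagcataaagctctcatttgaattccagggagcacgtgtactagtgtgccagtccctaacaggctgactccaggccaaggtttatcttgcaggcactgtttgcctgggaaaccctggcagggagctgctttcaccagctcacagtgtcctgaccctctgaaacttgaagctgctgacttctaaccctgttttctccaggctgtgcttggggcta
Aldh1a1, chr19:20492333-20492632, plus strand: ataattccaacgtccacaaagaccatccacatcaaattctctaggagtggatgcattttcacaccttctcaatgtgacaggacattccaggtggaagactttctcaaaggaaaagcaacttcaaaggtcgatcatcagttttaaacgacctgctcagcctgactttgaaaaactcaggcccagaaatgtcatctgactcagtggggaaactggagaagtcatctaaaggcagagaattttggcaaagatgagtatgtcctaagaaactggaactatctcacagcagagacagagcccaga
Nr2f1, chr13:78198824-78199123, minus strand: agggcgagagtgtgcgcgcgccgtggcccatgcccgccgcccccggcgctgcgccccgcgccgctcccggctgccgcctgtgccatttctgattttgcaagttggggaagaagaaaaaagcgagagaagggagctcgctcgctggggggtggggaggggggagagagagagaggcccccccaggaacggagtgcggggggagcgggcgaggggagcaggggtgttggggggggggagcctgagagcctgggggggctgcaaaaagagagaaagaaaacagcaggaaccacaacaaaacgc

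Restricting the choice to IP-enriched genes added 5 genes higher and 7 lower in PFC. This class also held 6 of the 8 tested meningeal fibroblast markers and all 3 tested ependyma and choroid plexus markers. Membership alone therefore does not assign a gene to astrocytes. Higher in PFC were the collagen chain Col1a2 (log2 1.34 ± 0.09), the transcription factor Tfcp2l1 (1.21 ± 0.05) and Shisa2 (1.21 ± 0.09), which acts on the maturation of Wnt and FGF receptors. The actin-associated adaptor Afap1l2 (1.17 ± 0.10) and the protease inhibitor A2m (1.15 ± 0.09) completed the 10. Tfcp2l1 stood at 17.4, 19.8 and 23.3 FPKM in PFC and 6.74, 8.58 and 9.81 FPKM in VCX libraries, with a gap between the areas. Col1a2 measured 20.8, 24.1 and 32.2 FPKM in PFC and 6.74, 10.5 and 12.6 FPKM in VCX libraries, although the meningeal list it belongs to had 5 of its other members lower in PFC. Lower in PFC were angiotensinogen, Agt (-1.33 ± 0.09), Fam180a (-1.27 ± 0.17), the EGF-repeat matrix protein Egfl6 (-1.24 ± 0.06) and the aldo-keto reductase Akr1b8 (-1.24 ± 0.10). Gdf10, a TGF-beta family ligand (-1.19 ± 0.06), Rnase1, a secreted ribonuclease (-1.17 ± 0.15), and Smyd1, a methyltransferase known from muscle (-1.14 ± 0.09), followed. Agt had 13.8, 16.6 and 19.1 FPKM in PFC and 32.6, 40.6 and 60.3 FPKM in VCX libraries, and Gdf10 5.3, 6.38 and 9.2 FPKM in PFC and 10.7, 15.3 and 19.1 FPKM in VCX libraries. Neither gene's ranges overlapped, while those of Fam180a did, at 0.683 to 5.4 FPKM in PFC and 2.37 to 11.2 FPKM in VCX. Fam180a was -0.91 with the meningeal covariate.

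**Figure D3:**
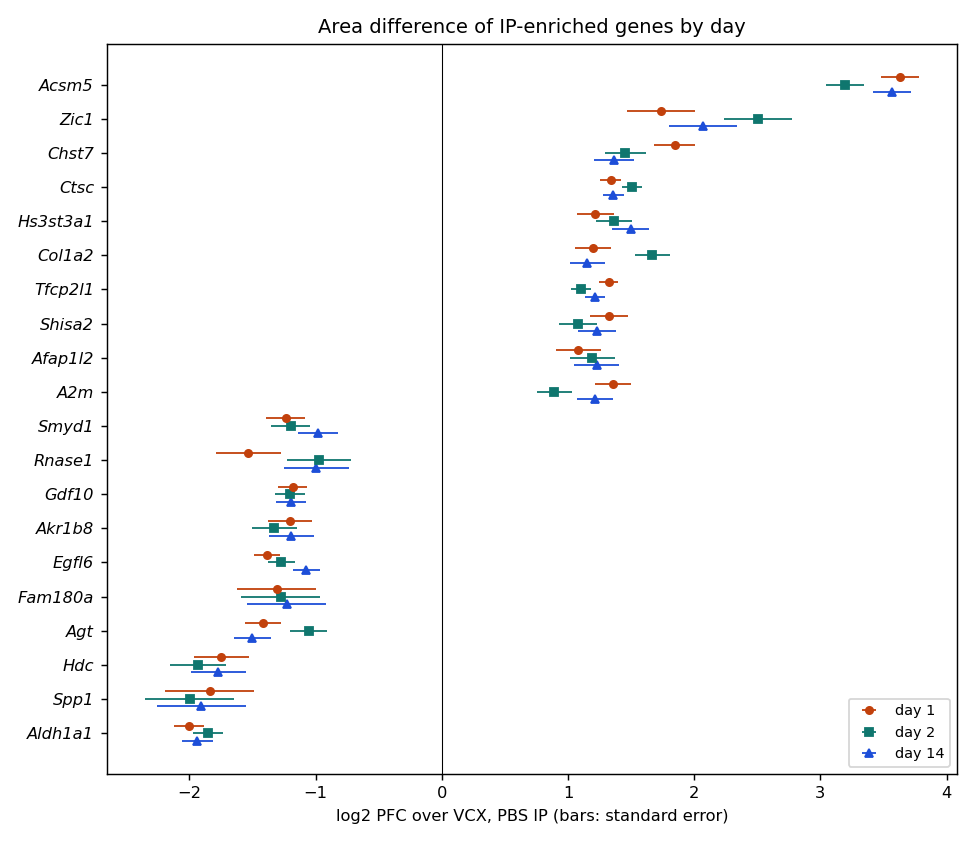
Log2 PFC over VCX in PBS IP (x axis; points with standard errors) of the 20 IP-enriched genes chosen by size, separately for days 1, 2 and 14, sorted by the value over all days. Acsm5 is highest at 3.63, 3.20 and 3.57 and Aldh1a1 is at -2.0, -1.85 and -1.94; the choice of genes fixed the common sign.

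The same comparison was made within each day, which is also within each sequencing project. Of 13266 tested genes limma called 1160 (8.74%) at day 1, 716 (5.4%) at day 2 and 812 (6.12%) at day 14. Of the genes in the comparison over all days, 422 were called on each of the 3 days, 231 higher in PFC on all and 191 lower on all. Of 1113 genes called at day 1, 505 were called in the same direction at day 2 (45.4%), which is 74.6% of the 677 called at day 2. The overlap of days 1 and 14 was 523 genes (47% of day 1 and 67.9% of the 770 of day 14), and that of days 2 and 14 was 503 genes (74.3% and 65.3%). No gene was called in opposite directions on 2 days. Across IP-enriched genes, the log2 differences of 2 days correlated with Pearson r of 0.86 for days 1 and 2, 0.80 for days 1 and 14 and 0.89 for days 2 and 14. Across all 12588 genes of the main comparison r was lower, at 0.69, 0.56 and 0.76. The genes in either set, 3175 in the IP-enriched one, are not independent of each other, and each day has its own libraries.

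A test of whether the area difference itself varied between the days called 0 of 13266 genes (0%) with limma, while 582 had an unadjusted p under 0.05. Limma-voom on recovered reads also called 0, with 545 at an unadjusted p under 0.05. Both this count and that of day 1 rest on single libraries. Without VCX replicate 4 of day 1, limma called 2833 genes at day 1 and 386 genes for a difference between days, and without VCX replicate 1 of day 1 it called 735 at day 1. Leaving out VCX replicate 4 of day 1 gave 2422 genes over all days. The area differences of days 1, 2 and 14 were -2.22, -2.11 and -2.24 for Nr2f1, 1.73, 2.5 and 2.07 for Zic1 and -1.42, -1.06 and -1.50 for Agt (log2).

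The IP was next set beside the input of the same areas, to separate the astrocyte fraction from the whole lysate. In the fit of all 48 PBS libraries limma called 2640 of 14370 genes (18.4%) between areas in IP, 3353 (23.3%) in input and 1801 (12.5%) for a difference between the IP and the input effect, 872 higher (6.07%) and 929 lower (6.46%). Of the genes called in IP in this fit that were in the main comparison, 927 of 2306 (40.2%) were called in the same direction in input, which is 32.1% of the 2888 called in input. A further 174 were called in the opposite direction in input and 1205 were not called there. Among IP-enriched genes called between areas, 377 of 958 were called in the same direction in input and 56 in the opposite direction. The corresponding counts for input-enriched genes were 225 and 11 of 388. For 312 of the 958 the difference between IP and input was itself called.

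Nr2f1 differed less between the areas in the lysate than in the IP. Input values and differences from input are those of the fit of 48 libraries. The Nr2f1 input levels were 19.2, 24 and 28.3 FPKM in PFC and 30.9, 36.3 and 43.5 FPKM in VCX libraries (lowest, median and highest), a log2 difference of -0.59 ± 0.04. The IP minus input difference was -1.60 ± 0.05 (adjusted p = 1.6e-26). Lphn2 ran in opposite directions, with 14.5, 15.5 and 18.1 FPKM in PFC input and 6.89, 7.71 and 11 FPKM in VCX input, a log2 difference in PFC over VCX of -1.34 ± 0.05 in IP and 0.98 ± 0.05 in input. The difference between these was -2.32 ± 0.08 (adjusted p = 4.4e-27). Scel, at 0.33 ± 0.11 in input, and Nrn1, at -0.19 ± 0.07, also had called area effects of opposite sign in input (adjusted p = 0.0188 and 0.0296).

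Among IP-enriched genes, the 4 whose PFC excess in IP most exceeded that in input were Acsm5 (IP minus input 2.09 ± 0.16), Zic1 (1.67 ± 0.20), Chst7 (1.43 ± 0.16) and the extracellular MAM domain protein Mamdc2 (1.29 ± 0.14). Mean input levels of Acsm5 were 0.256 FPKM in PFC and 0.0263 FPKM in VCX libraries. At such levels the 0.1 FPKM added before the logarithm understates the input difference, so the IP minus input value of Acsm5 is overstated. Mamdc2 was 0.87 ± 0.10 in IP and -0.42 ± 0.10 in input (adjusted p = 2.9e-09 and 0.00116), so its signs were opposite. In the other direction stood the collagen prolyl hydroxylase subunit P4ha3 (-1.40 ± 0.18), the ligand Wnt7b (-1.26 ± 0.08), the transcription factor Dach1 (-1.18 ± 0.10) and Hdc (-1.15 ± 0.18). Wnt7b was -0.12 ± 0.05 in IP (adjusted p = 0.139) and 1.14 ± 0.05 in input (adjusted p = 1.9e-21), and Dach1 -0.10 ± 0.07 in IP and 1.08 ± 0.07 in input (adjusted p = 0.44 and 3.2e-16). For both, the called area effect was in the lysate and the IP values did not pass the test. Without day 1, limma called Wnt7b lower in PFC in the IP (-0.139, adjusted p = 0.0127). The highest adjusted p of these 8 differences was 6.1e-06, for Hdc. Mean input levels of Hdc were 0.107 FPKM in PFC and 0.235 FPKM in VCX libraries, so its difference is overstated in the same way. Agt (-0.31 ± 0.14) and Spp1 (-0.67 ± 0.24) had IP minus input differences that did not pass (adjusted p = 0.175 and 0.0579).

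**Figure D4:**
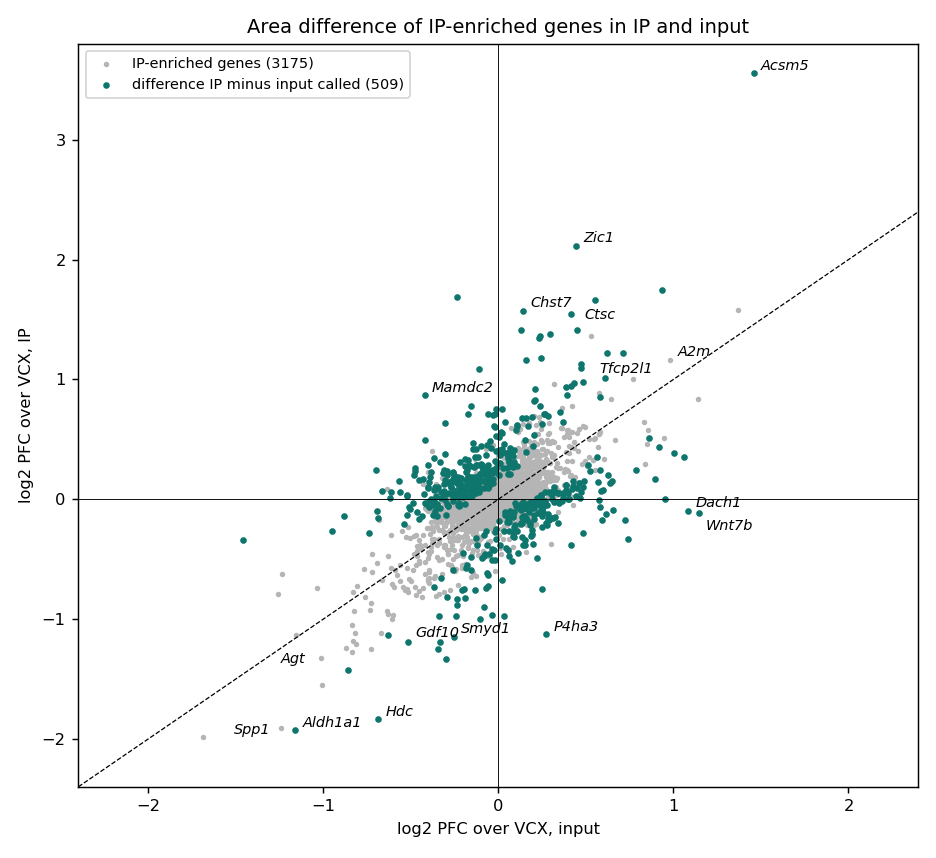
Log2 PFC over VCX in input (x axis) and in IP (y axis) for the 3175 IP-enriched genes; green points are the 509 whose difference was called and the dashed line marks equal values. Acsm5 at 1.46 in input and Zic1 at 0.44 lie far above the line, while Wnt7b and Dach1 lie to its right near 0 on the IP axis. The input value of Acsm5 is understated by the 0.1 FPKM added, its input means being 0.256 FPKM in PFC and 0.0263 FPKM in VCX libraries.

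The areas were compared in the same way in IP libraries of mice given LPS, which share no library with the PBS mice. In a fit of all 47 IP libraries limma called 2547 of 13196 genes (19.3%) between areas after LPS and 2432 (18.4%) after PBS. Of 2327 PBS calls in the main comparison, 1767 (75.9%) were called in the same direction after LPS, which is 72.1% of the 2451 LPS calls, and 0 in the opposite direction. No gene was called for a difference of the area effect between LPS and PBS by limma (0% of 13196 genes, 220 at an unadjusted p under 0.05) or by limma-voom (0, with 361). This does not show that the effects were alike. The area difference after LPS was 3.47 ± 0.12 for Acsm5, -2.26 ± 0.04 for Nr2f1 and -1.92 ± 0.09 for Aldh1a1 (log2 ± SE). The PBS values of the same fit were 3.47 ± 0.12, -2.18 ± 0.04 and -1.92 ± 0.09.

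Gene lists for pathways and functions were read against the median of all tested genes, -0.01 on the log2 scale, and against the 18.3% of genes called. For lists made up mostly of IP-enriched genes, the 30.2% called in that class is the closer background. Lists and members were chosen with earlier results of these data known, so their shares and directions are descriptions only. Of 18 tested transcription factors of cortical area patterning, 1 was higher and 3 lower in PFC, with a median of -0.04. Nr2f1 had the largest difference of the list. Lhx2, a LIM homeodomain factor of cortical progenitors, was higher (100, 126 and 141 FPKM in PFC and 83.3, 98.1 and 132 FPKM in VCX libraries, log2 0.25 ± 0.04, adjusted p = 1.2e-05). Bcl11a (-0.58 ± 0.10) and Rorb (-0.34 ± 0.04) were lower, and Rorb differed more in input, at -1.46 ± 0.06 (IP minus input 1.12 ± 0.09, adjusted p = 2.5e-13). Emx2, whose embryonic gradient opposes that of frontal factors, was at 15.3 to 26.1 FPKM in PFC and 12.1 to 26.6 FPKM in VCX and did not pass the test (log2 0.23 ± 0.08, adjusted p = 0.0637). Emx2 passed without day 1 (0.33, adjusted p = 0.0172), without scaling between libraries (0.035), in the fit of 47 IP libraries (0.0322) and without any of 4 single libraries, namely replicates 1 and 3 of both areas of day 1 (0.025 to 0.0493). Among 13 tested layer genes of excitatory neurons 1 was higher and 4 lower, with Rspo1 (-0.68 ± 0.08), Rorb, Cux2 (-0.33 ± 0.10) and Otof (-0.32 ± 0.10) lower.

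Retinoid genes were called in both directions. Of 16 tested, 3 were higher and 4 lower in PFC, with a median of -0.13. Beside Aldh1a1, a second retinaldehyde dehydrogenase, Aldh1a2, was lower (1.73, 6.51 and 12.5 FPKM in PFC and 3.72, 11.6 and 18.4 FPKM in VCX libraries, log2 -0.65 ± 0.20, adjusted p = 0.0227). The areas overlapped widely for Aldh1a2, whose call was lost without day 1 or day 14 (adjusted p = 0.14 and 0.0709) and which was -0.23 with the meningeal covariate. The receptor Rxrg was higher in PFC (1.00 ± 0.10), as was the retinol dehydrogenase Rdh5 (0.56 ± 0.08, 8.52 to 11.8 FPKM in PFC and 4.66 to 8.28 FPKM in VCX). In input Rxrg was 2.02 ± 0.09, a larger difference than in IP (adjusted p of the difference 2.1e-08).

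Called genes of the hedgehog and Notch pathways were all higher in PFC. Of 11 tested genes of the hedgehog pathway, 10 of them IP-enriched, 6 were higher and 0 lower (54.5% called, against 30.2% of IP-enriched genes, median 0.15). They included the co-receptors Cdon (0.81 ± 0.09) and Gas1 (0.27 ± 0.04), the ligand-binding inhibitor Hhip (0.70 ± 0.09) and the target gene Gli1 (0.37 ± 0.12). Hhip had 2.23, 2.82 and 3.47 FPKM in PFC and 1.2, 1.65 and 2.33 FPKM in VCX libraries, and none of the 6 was called in the same direction in input. Of 14 Notch pathway genes, 13 of them IP-enriched, 6 were higher and 0 lower (42.9% called, median 0.12). Among these were the target genes Hes5 (0.63 ± 0.18) and Hey2 (0.23 ± 0.07), the glycosyltransferase Lfng (0.60 ± 0.06) that modifies Notch, and the receptor Notch3 (0.34 ± 0.06). Lfng measured 77.8, 91.5 and 113 FPKM in PFC and 52.5, 58.9 and 73.1 FPKM in VCX libraries, with no overlap, and 0.50 ± 0.06 in input. Hes5 ranges overlapped, at 19.3 to 55.6 FPKM in PFC and 11.1 to 42.6 FPKM in VCX.

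The FGF pathway had 5 higher and 1 lower of 15 tested, with a median of 0.02. The ligands Fgf1 (0.36 ± 0.06) and Fgf2 (0.21 ± 0.05) and the ETS factor Etv4 (0.28 ± 0.05) were higher, whereas the feedback inhibitor Spry1 was lower (0.878, 1.83 and 2.33 FPKM in PFC and 2.04, 4.03 and 7.33 FPKM in VCX libraries, log2 -1.15 ± 0.14, adjusted p = 9.8e-07). Wnt genes were split, 6 higher and 6 lower of 19. Among them the secreted inhibitor Sfrp1 (0.54 ± 0.15) was higher, a call lost without day 1 or day 14, and its relative Sfrp5 (-1.23 ± 0.20), the nuclear effector Lef1 (-0.89 ± 0.08) and the receptor Fzd10 (-0.44 ± 0.07) were lower. Of 20 BMP and TGF-beta genes 5 were higher and 4 lower, with the target Id3 higher (0.42 ± 0.11) and Bmp4 (-0.62 ± 0.17), Bmp6 (-0.49 ± 0.13) and the receptor Tgfbr2 (-0.33 ± 0.08) lower. With the meningeal covariate Bmp4 was -0.28 and no longer passed (adjusted p = 0.1), Bmp6 was -0.21 and Tgfbr2 -0.21.

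Among contact-dependent cues, the ephrin ligands gave the largest differences. Of 17 Eph receptors and ephrins 6 were higher and 1 lower in PFC, with a median of 0.06. The ephrin ligand Efna5, a repellent known from axon mapping, had 1.22, 1.55 and 2.08 FPKM in PFC and 0.317, 0.443 and 0.684 FPKM in VCX libraries, without overlap (log2 1.57 ± 0.10, adjusted p = 1.5e-11). In input Efna5 was lower in PFC, at -0.38 ± 0.10 (adjusted p = 0.00424). Efnb2 (1.03 ± 0.07), Efna4 (0.57 ± 0.13) and the receptor Ephb6 (0.53 ± 0.09) were also higher. Of the 17 genes 9 were input-enriched. Mean input levels were 13.6 FPKM in PFC and 10.3 FPKM in VCX for Efnb2, and 60.9 and 41.8 FPKM for Ephb6. Their IP levels reached at most 5.61 FPKM for Efnb2 and 13.6 FPKM for Ephb6. Of 17 matrix genes 6 were higher and 2 lower, with the axon guidance protein Spon1 (0.68 ± 0.04), the lysyl oxidase relative Loxl1 (0.62 ± 0.06) and tenascin R, Tnr (0.41 ± 0.10), higher. Mean levels of Tnr were 21.5 FPKM in PFC and 15.1 FPKM in VCX input, and 3.79 and 3.24 FPKM in IP libraries after LPS. Tenascin C, Tnc, was lower, at 7.27, 8.06 and 9.19 FPKM in PFC and 11.7, 13.9 and 16.6 FPKM in VCX libraries, without overlap (log2 -0.76 ± 0.05, adjusted p = 2.1e-11).

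Of 20 astrocyte genes known for acting on synapses, 14 of them IP-enriched, 3 were higher and 3 lower in PFC (30%, against 18.3% of all genes and 30.2% of IP-enriched genes). The thrombospondins ran in opposite directions, with Thbs4 lower in PFC (2.09, 3.72 and 6.17 FPKM in PFC and 4.97, 8 and 12.2 FPKM in VCX libraries, log2 -1.11 ± 0.20, adjusted p = 2.7e-04) and Thbs2 higher (0.27 ± 0.09, adjusted p = 0.0326). The Thbs2 call was lost without day 2, at 0.14, and without VCX replicate 1 of day 1 or replicates 3 or 4 of either area of day 2, at 0.226 to 0.262. Lrp4, an agrin receptor, was higher (0.35 ± 0.04) and the repellent Sema3a lower (-0.52 ± 0.11). Chrdl1, which promotes synapse maturation, was at 43.6 to 64.2 FPKM in PFC and 46.5 to 73.6 FPKM in VCX and did not pass the test (log2 -0.08 ± 0.06). Without day 14 limma called Chrdl1 lower in PFC (-0.225, adjusted p = 0.00473). On day 14 its levels were 55.7 to 64.2 FPKM in PFC and 46.5 to 57.8 FPKM in VCX libraries.

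Of 20 genes reported for layered or regional astrocytes, 9 were higher and 6 lower in PFC (75.0%), the highest share of any gene list. This list was drawn up from genes known to differ between astrocytes of different places. Hopx, a homeodomain protein without DNA binding, had 160.2, 228 and 288 FPKM in PFC and 86.8, 117 and 170.4 FPKM in VCX libraries (log2 0.85 ± 0.05, adjusted p = 1.5e-12). The ranges overlapped narrowly. Crym (0.66 ± 0.15) was also higher but input-enriched, and Agt, Thbs4 and the cytokine Il33 (-0.28 ± 0.06) were lower. Gfap, the intermediate filament of astrocytes, was lower as well, at 176, 219.8 and 249 FPKM in PFC and 213, 279.7 and 373 FPKM in VCX libraries (log2 -0.38 ± 0.05, adjusted p = 2.6e-06). It was -0.42 ± 0.05 in input.

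Of the 20 astrocyte markers 1 was higher and 2 lower (median -0.01), namely glutamine synthetase, Glul (0.15 ± 0.04), Gfap and S100b (-0.17 ± 0.05). The glutamate transporters Slc1a2 (-0.08 ± 0.04) and Slc1a3 (-0.01 ± 0.04), the water channel Aqp4 (-0.10 ± 0.05), the potassium channel Kcnj10 (0.08 ± 0.08) and the connexin Gja1 (0.03 ± 0.06) did not pass the test. Slc1a2 had 3231, 3861 and 4658 FPKM in PFC and 3345, 4103 and 5098 FPKM in VCX libraries. Among 19 genes of transmitter, ion and water homeostasis 4 were higher and 1 lower (26.3%). The largest difference was that of the glycine transporter Slc6a9, which was lower (9.08 to 11.7 FPKM in PFC and 11.9 to 21.5 FPKM in VCX, log2 -0.63 ± 0.08). The glutamine transporter Slc38a3 (0.23 ± 0.04), the potassium channel Kcnj16 (0.23 ± 0.05) and the GABA transporter Slc6a11 (0.19 ± 0.05) were slightly higher. The ribosomal gene Rpl22 was 0.05 ± 0.05 (adjusted p = 0.573).

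Several receptors for transmitters were higher in PFC by small amounts. Of 23 tested, 7 were higher and 3 lower, with a median of 0.02. The 3 lower were Ednrb, Hrh1 and Gabbr1, which is also a GABA-B receptor subunit, none of them below -0.23 (log2). Gabbr2, a subunit of the GABA-B receptor, had 86.2, 95 and 111 FPKM in PFC and 51.4, 61.2 and 82.3 FPKM in VCX libraries, with no overlap (log2 0.61 ± 0.05, adjusted p = 3.3e-09). The adrenergic receptors Adra1b (0.49 ± 0.08), Adra2a (0.45 ± 0.11) and Adra1a (0.32 ± 0.05) were higher. Adra2a differed in sign from input, where it was -0.61 ± 0.10 (adjusted p = 2.0e-06), and Adra1b differed more there, at 1.36 ± 0.08 (IP minus input -0.86 ± 0.12, adjusted p = 2.6e-07). Of 6 tested genes of monoamine handling 3 were higher and 0 lower. These were the serotonin receptor Htr2a (0.72 ± 0.16), input-enriched and at 0.897 ± 0.369 FPKM in PFC and 0.496 ± 0.19 FPKM in VCX libraries, and the monoamine oxidases Maoa (0.18 ± 0.03) and Maob (0.15 ± 0.05, adjusted p = 0.0439). The Maob call was lost when any of 17 single libraries was left out.

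**Figure D5:**
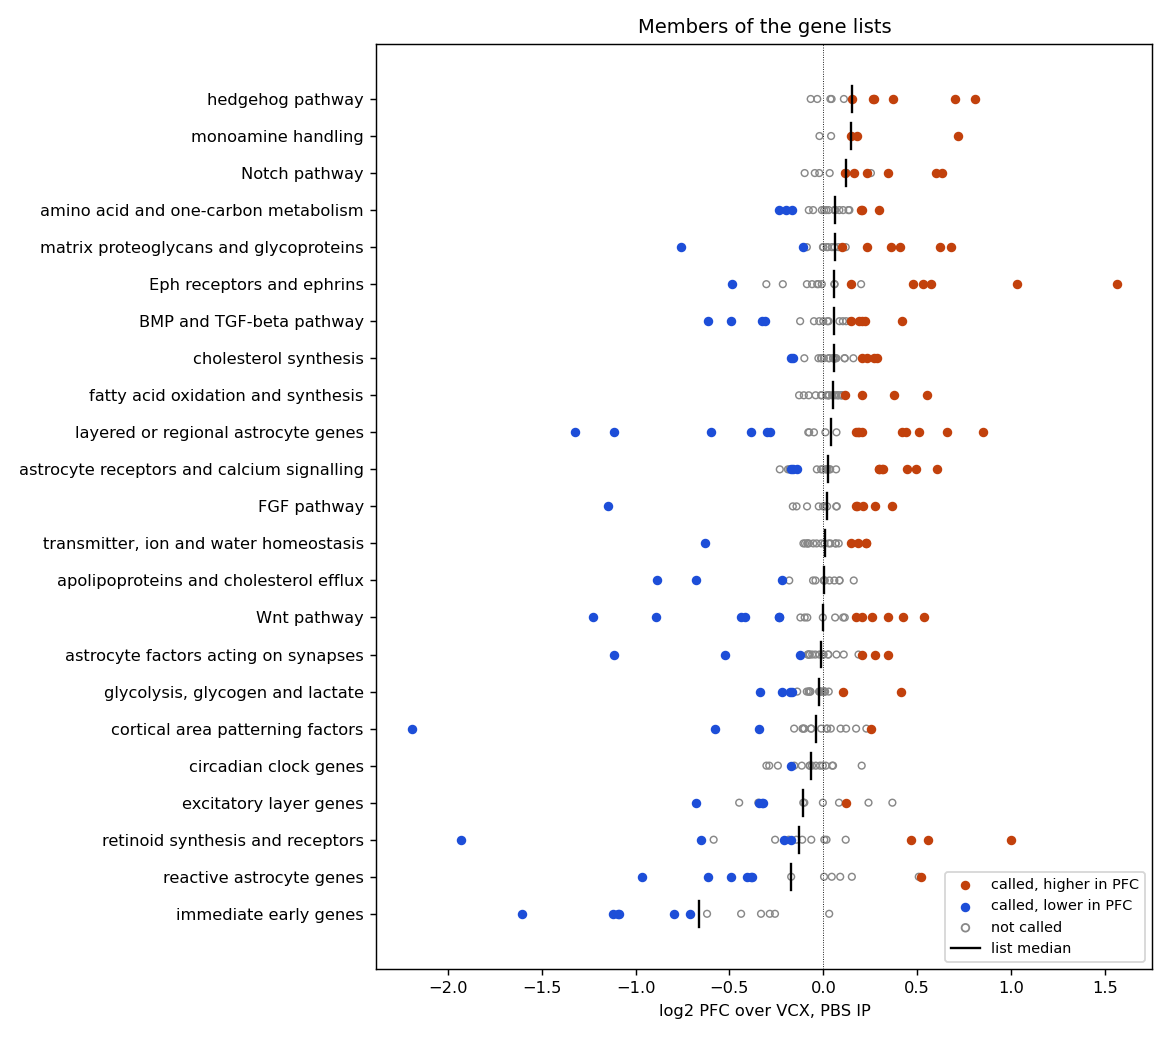
Log2 PFC over VCX in PBS IP (x axis) of every tested member of the 23 gene lists (rows, sorted by median); filled points passed the test and black bars mark medians. The medians lie between -0.66 for immediate early genes and 0.15 for the hedgehog pathway.

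Metabolic lists had small differences. Of 22 genes that make or oxidise fatty acids, 4 were higher and 0 lower (18.2%), or 6 and 1 without scaling between libraries. The desaturases Scd1 (316, 369 and 395 FPKM in PFC and 218, 240.0 and 341 FPKM in VCX libraries, log2 0.55 ± 0.05) and Fads1 (0.37 ± 0.04) led them, followed by Acads (0.20 ± 0.06) and Scd2 (0.11 ± 0.03). The count was 4 higher and 2 lower of 22 for cholesterol synthesis, with Lss (0.29 ± 0.05), Tm7sf2 (0.27 ± 0.07), Cyp51 (0.23 ± 0.05) and Sc5d (0.21 ± 0.05) higher. Glycolysis, glycogen and lactate genes were 2 higher and 4 lower of 22. Pfkfb3, which makes an activator of phosphofructokinase, was higher (0.41 ± 0.05), and Pfkp (-0.22 ± 0.03), glycogen synthase Gys1 (-0.18 ± 0.04) and the glycogen-targeting subunit Ppp1r3c (-0.34 ± 0.04) were lower. Ppp1r3c had 179, 221 and 253 FPKM in PFC and 233, 279.9 and 331 FPKM in VCX libraries. For amino acid and one-carbon metabolism 3 were higher and 3 lower of 19, with Aldh1l2 (0.30 ± 0.08), Glud1 (0.21 ± 0.04) and Cbs (0.20 ± 0.06) higher and Gpt2 (-0.24 ± 0.08) lower. Apolipoproteins and cholesterol efflux had 0 higher and 3 lower of 14, namely Apod (-0.88 ± 0.20), Apoc1 (-0.68 ± 0.08) and Clu (-0.22 ± 0.05). Apod was -0.45 with the meningeal covariate. Of 16 circadian clock genes 0 were higher and 1 lower, Rora (-0.17 ± 0.05).

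Most called genes linked to astrocyte reactivity were lower in PFC. Of 13 tested, 1 was higher and 6 lower, with a median of -0.17. The cytokine receptor Osmr had 1.4, 1.72 and 2.29 FPKM in PFC and 2.96, 3.36 and 4.5 FPKM in VCX libraries, without overlap (log2 -0.97 ± 0.07, adjusted p = 4.7e-11), and 0.03 ± 0.08 in input (adjusted p of the difference 1.3e-08). Ceruloplasmin, Cp (-0.62 ± 0.13), and the hyaluronan receptor Cd44 (-0.49 ± 0.06) were lower, and the class I histocompatibility gene H2-D1 was higher (0.52 ± 0.12). Cp was -0.34 with the meningeal covariate.

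Immediate early genes, which neurons and other cells can switch on within minutes of activity, had 0 members higher and 6 lower in PFC of 12 tested. Their median of -0.66 was the lowest of the gene lists. Nr4a1 had 2.65, 4.51 and 6.67 FPKM in PFC and 7.4, 12.9 and 28.5 FPKM in VCX libraries. Arc differed by -1.12 ± 0.19, Fosl2 by -1.09 ± 0.14 and Fos by -1.09 ± 0.36 (adjusted p = 0.04 for Fos, whose call was lost when any of 12 single libraries or any day was left out). Of the 12, 9 were input-enriched and 0 IP-enriched, and all 6 were called in the same direction in input, with Arc at -1.14 ± 0.19 and Nr4a1 at -0.97 ± 0.21. The pan-neuronal sums overlapped between the areas, and with the pan-neuronal marker level as a covariate Nr4a1 was -1.55, Arc -1.03 and Fosl2 -1.03. That covariate stands for the amount of neuronal RNA and cannot take out a difference in activity per neuron. The part of carried-over neuronal RNA in these differences was not tested.

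Counts of called list members moved in 18 of 37 lists without the day term. Of the days left out, they depended most often on day 2 (14 lists), the day without which the fewest genes were called in all. Without it, 1 was higher and 2 lower among genes acting on synapses, 4 and 1 among matrix genes, 1 and 1 in homeostasis, and 1 and 3 in the BMP and TGF-beta list. The Notch list then had 2 higher and 0 lower, immediate early genes 0 and 3, fatty acid genes 2 and 0, amino acid genes 2 and 1, monoamine genes 1 and 0, and layer genes 1 and 2. Without the 4 libraries of day 14 with the highest pan-neuronal levels, 3 layer genes were higher and 5 lower, and 2 pan-neuronal markers were higher and 3 lower. Calls near the threshold were lost with 1 library left out, for S100b with any of 15, for Gpt2 with any of 14, for Gli1 with any of 6, and for Cnp without PFC replicate 4 of day 1 or VCX replicate 3 of day 14. Of the single genes named, the calls of Aldh1a2, Apod, Bmp4, Bmp6, Cbs, Clu, Fgf2, Fos, Gli1, Gpt2, Maob, Nefm, Otof, Pdgfra, Pdgfrb, Rora, S100b, Sfrp1, Slc13a4, Slc22a6, Slc6a13, Thbs2, Tmem119 and Tnr were lost without day 1. Those of Acads, Adra2a, Aldh1l2, Bmp4, Clu, Cnp, Crym, Cux2, Fos, Gli1, Glul, Gpt2, Gys1, H2-D1, Hes5, Hey2, Htr2a, Id3, Kcnj16, Maob, Nefm, Neurod6, Otof, Pdgfrb, S100b, Scd2, Slc6a11, Thbs2 and Tnr were lost without day 2. Leaving out day 14 ended the calls of Aldh1a2, Cbs, Cnp, Cyp51, Fos, Gli1, Glul, Hey2, Kcnj16, Maob, Otof, Pdgfrb, Sc5d, Scd2, Sfrp1, Slc13a4, Slc6a13, Tm7sf2 and Tmem119.

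Most neuronal markers were not called without a covariate. Of 12 pan-neuronal markers 0 were higher and 2 lower, Thy1 (-0.84 ± 0.10) and Nefm (-0.61 ± 0.18). Thy1 had 20.3, 23.3 and 37.2 FPKM in PFC and 32.6, 43.6 and 67.5 FPKM in VCX libraries but 0.14 ± 0.09 in input (adjusted p = 0.286). Of 7 excitatory neuron markers Neurod6 was higher (0.74 ± 0.17), and of 11 interneuron markers none was called, Cck being 0.44 ± 0.21 and Vip -0.27 ± 0.21. Cck was called without day 14 (adjusted p = 0.0277), without the 4 day 14 libraries with the highest pan-neuronal levels (0.0106), in the fit of 48 libraries (0.0428) and with the pan-neuronal covariate (0.58, adjusted p = 9.0e-12). None of 6 endothelial markers passed either, with Flt1 at -0.26 ± 0.14 and Slco1a4 at -0.01 ± 0.13. Of 11 microglia markers 2 were higher, P2ry12 (0.47 ± 0.08) among them, and Tmem119 (-0.41 ± 0.11) was lower. With the pan-neuronal covariate 7 microglia markers were higher and 1 lower, and 5 pan-neuronal markers were higher and 3 lower. Cnp of the 7 myelin markers (-0.18 ± 0.05) and Pdgfra of the 5 precursor markers (-0.43 ± 0.11) were lower.

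Markers of subcortical and hippocampal neurons, which a dissection could include, were also mixed. Of 6 striatal genes 1 was higher, the adenosine receptor Adora2a (0.66 ± 0.09), and 2 lower, Ppp1r1b (-0.63 ± 0.05) among them. The list summed to 29.5 to 40.5 FPKM in PFC and 44.7 to 60.4 FPKM in VCX libraries. Most of this was Ppp1r1b, at 22.3 to 33 FPKM in PFC and 36.8 to 51.6 FPKM in VCX, with input means of 19.6 and 18.8 FPKM. Adora2a was at 0.865 to 2.8 FPKM in IP, with input means of 0.401 FPKM in PFC and 0.34 FPKM in VCX. The sums are therefore no measure of striatal tissue. Of 4 hippocampal genes Tdo2 was higher (0.79 ± 0.15) and Prox1 lower (-0.47 ± 0.08). Zic1 was the 1 called gene of the 2 tested from the olfactory bulb and septum list. The other 4 of the 6 did not reach the level for testing.

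Several meningeal and vessel markers differed between the areas. Of 8 meningeal fibroblast markers 1 was higher and 5 lower (75.0%, median -0.62), and 6 of the 8 were IP-enriched. The count was 1 higher and 0 lower without day 1 or without the day term, and 1 higher and 2 lower without day 14. The transporters Slc22a6 (-0.73 ± 0.19), Slc6a13 (-0.72 ± 0.19) and Slc13a4 (-0.69 ± 0.20) were lower over all days and lost their calls without day 1 (adjusted p = 0.121, 0.0562 and 0.153), with Slc6a13 at 1.96, 8.47 and 17 FPKM in PFC and 4.56, 15.3 and 22.7 FPKM in VCX libraries. Of 3 pericyte markers Rgs5 (1.01 ± 0.11) and Pdgfrb (0.20 ± 0.06) were higher and Vtn was lower (-1.12 ± 0.18). The potassium channel Kcnj13, from the choroid plexus list, was lower (-0.93 ± 0.18). With the meningeal marker level of each library as a covariate limma called 1910 genes between areas, 1014 higher and 896 lower. Then Vtn was -0.73 and Kcnj13 -0.56, while Aldh1a1 was -1.87 and Zic1 2.33. The part of meningeal RNA in the differences of single genes was otherwise not tested.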

How the data were processed

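PolyA RNA from immunoprecipitated ribosomes and from cleared lysate was sequenced as TruSeq libraries, per the labels' protocols. The deposited values are FPKM made by the authors. STAR, HTSeq and mm10 are listed, per the submitters' processing notes, and the gene annotation, the versions and the use of strand are not given in the sources used here. In 24060 entries per file, 27 held dates in place of gene symbols, and the 4 whose date occurs for 2 genes were left out. FPKM of all 20724 expressed genes were whole multiples of 1 read within 0.05, and the reads worked back gave depths of 20.67 to 63.71 M reads for the 24 libraries and 7.98 to 48.05 M reads for the PBS input. They served for scaling factors (trimmed mean of M values, 30% and 5% trimmed, 0.96 to 1.03) and for limma-voom.

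Values were divided by the factors, log2-transformed after adding 0.1 and fitted with limma 3.58.1 in R 4.3.3 with trend and robust options. Day and sex were covariates. A gene was tested if 0.5 FPKM was reached in 12 or more libraries in the main comparison, and in the size of the smallest group elsewhere. Fold changes of low genes are understated on this scale. Adjusted p-values are Benjamini-Hochberg values over all genes tested, and called means under 0.05. IP over input, the difference of area effects between IP and input (48 libraries), between LPS and PBS (47 libraries) and between days were tested in limma fits of their own. The script was tested on simulated data. Python 3.11.15 assembled the tables.

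The genes named were the 12 per direction with the largest called difference, PFC and VCX not overlapping within any day and a mean of at least 2 FPKM in the higher area. To these came the 10 per direction of the IP-enriched class, the 4 per direction with the largest IP minus input difference, up to 4 called members per list (or the 2 most abundant if none was called) and 13 genes given whatever their result. Ednrb, Hrh1 and Gabbr1 were named outside this rule, and their results under the alternatives are not given. Predicted genes were counted and not named, and a few genes that the rule names are not reported here. The members and the 37 lists were chosen with earlier results of these data known. The symbol Drd1 was not matched. Gene positions are from GENCODE vM21 on mm10, promoter windows from RefSeq on GRCm38.p6. Of 158 genes named by the rule, 37 have spans that overlap another entry, among them Acsm5, Aldh1a1, Fam134b, Hs3st3a1, Lpar1, Nrn1 and Pla2g5, and reads of such overlaps are uncertain. Alternatives were the added value, filter, scaling, sex term, day term, robust option, limma-voom and leaving out days or libraries. Chosen after seeing the data were the fits without 4 day 14 libraries, with marker covariates and without the shallowest input library.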

Additional observations from a re-analysis of the deposited data

Results flagged for a closer look

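Among 282 groups of 4 libraries (1 area on 1 day) of the genes chosen by size or named whatever their result, 10 had a library far from the other 3 by Dixon's criterion. Chance flags about 1 in 20 groups. In PFC these were Aqp4 at 254 FPKM in replicate 3 of day 2, Gdf10 at 9.2 FPKM and Shisa2 at 6.67 FPKM in replicate 1 of day 2, and Hdc at 1.48 FPKM in replicate 4 of day 14. Hs3st3a1 stood at 4.49 FPKM in PFC replicate 4 of day 1 and at 6.12 FPKM in PFC replicate 2 of day 14. In VCX they were Atp13a5 at 4.33 FPKM in replicate 4 of day 14, Cacng5 at 0.0614 FPKM in replicate 3 of day 2 and Lpar1 at 4.63 FPKM in replicate 4 of day 2. VCX replicate 4 of day 1 stood apart for Emx2 at 15.8 FPKM.

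The 8 IP-enriched genes with the largest called difference between the IP and the input effect, 4 per direction, are singled out here. The difference, IP minus input on the log2 scale, was 2.09 for Acsm5, 1.67 for Zic1, 1.43 for Chst7 and 1.29 for Mamdc2. It was -1.40 for P4ha3, -1.26 for Wnt7b, -1.18 for Dach1 and -1.15 for Hdc. The sizes for Acsm5 and Hdc are overstated, because their input levels were near or below the 0.1 FPKM added before the logarithm.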

How the results depend on the processing

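The count of 2304 genes ranged from 2116 to 2524 with single libraries left out, 1097 to 1276 higher and 993 to 1272 lower in PFC. It was 1368 without day 2 (703 higher, 665 lower) and 1315 without the day term (677 and 638). Under the other settings listed, the 3 chosen after seeing the data included, it stayed within 1.5 times, from 1732 with a filter of 2 FPKM to 2807 with the pan-neuronal covariate. Without single libraries, day 1 gave 735 to 2833 genes, day 2 554 to 799, day 14 616 to 903 and the test between days 0 to 386. The IP minus input count of 1801 was 1163 without day 1 and 1049 without day 2, and 1690 to 1986 without single libraries. The input count of 3353 was 2166 without day 2, and 3128 to 3491 without single libraries. The count after LPS was 2318 to 2779 and the LPS minus PBS count 0 without single libraries. The cause of these shifts was not tested, though leaving out a day leaves fewer libraries. Among the 158 named genes no called difference reversed under any alternative, and 50 genes lost their call under at least 1 alternative other than a single library left out. Values of 2 genes that were not called changed sign, Slc1a3 (-0.074 to 0.051) and Gja1 (-0.026 to 0.113). Called members moved by more than 1.5 times in 14 of 37 lists without day 2 and in 18 without the day term. No paired analysis was possible because the labels give the groups no shared replicate numbers. Reads of 5 to 61 limit the VCX level of Cacng5, and LPS libraries of 12.46 M reads and an input of 7.98 M reads are the shallowest used.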
